A study of Homo sapiens with 6 samples.

Results

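Broad promoter domains are long stretches of H3K27ac (histone H3 acetylated at lysine 27) that run over the start of a gene and well beyond it. The domains described here were chosen by the width of control peaks. A domain held a peak of at least 4000 bases on chromosomes 1 to 22 or X, in either of the 2 control lists, that contained the canonical transcription start of a GENCODE protein-coding gene. Peaks of the 2 control lists that overlapped were joined. The rule gave 474 domains, which held the starts of 566 genes, out of 7409 control regions of any width with such a start and out of 93160 peaks in all 4 lists on these chromosomes. The control lists of both lines thus entered the choice, and the change of width in the same line is a description of the chosen domains and was not tested.

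H3K27ac was profiled by CUT&Tag, in which an antibody guides a transposase that cuts and tags the DNA beside the marked histone. Kasumi-1 and MV4-11, both lines of human acute myeloid leukemia (AML), were used, of which the former is known for its RUNX1::RUNX1T1 fusion and the latter for a fusion of KMT2A. Each of these 2 lines had a control library (NC, labelled untreated, and described in the methods as carrying a control hairpin) and a library with lentiviral short hairpin knockdown of ANP32B (sh-ANP32B), an acidic nuclear protein that binds histones. Infected cells were kept under puromycin in the study's protocol, the hairpin used for these libraries is not given in the sources used here, and the IgG libraries of both lines are not analysed here. Replicates were merged before peaks were called, so that each group was 1 list without a spread between replicates, and every difference below describes these 4 lists without a test.

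Acetylated H3K27 is laid down mainly by the acetyltransferases p300 and CBP and marks active promoters and enhancers. At most active genes the mark forms a narrow peak on the nucleosomes that flank the transcription start, whereas a small set of genes carries it far into the gene body. Such long domains are known from many cell types, where they often lie on genes tied to the identity of the cell, among them lineage transcription factors.

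The 200 bases before the transcription start of 6 genes are shown first, because, among domains with 1 gene, theirs were the widest in a control list or in both, or narrowed most in MV4-11 of those broad in its control list. They lie on hg38 at chr4:2792885-2793084 (SH3BP2, plus strand), chr2:144520120-144520319 (ZEB2, minus strand), chr1:155002602-155002801 (ZBTB7B, plus strand), chr9:136095290-136095489 (NACC2, minus strand), chr17:16415371-16415570 (TRPV2, plus strand) and chr9:126326629-126326828 (MVB12B, plus strand). No base of these windows fell in an exon of a canonical transcript. Each sequence is written 5′ to 3′ on the strand of its gene. Capitals mark matches on either strand to the GC box (GGGCGG or CCGCCC), the CCAAT box (CCAAT or ATTGG), an ETS motif (CCGGAAG or CTTCCGG) and an E-box (CACGTG), each searched separately, and GC boxes that overlap each other run together.
SH3BP2: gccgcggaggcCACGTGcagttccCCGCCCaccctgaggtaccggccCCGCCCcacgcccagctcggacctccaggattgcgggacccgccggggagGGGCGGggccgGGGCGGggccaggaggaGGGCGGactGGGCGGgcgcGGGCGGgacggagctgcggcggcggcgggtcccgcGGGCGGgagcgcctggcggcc
ZEB2: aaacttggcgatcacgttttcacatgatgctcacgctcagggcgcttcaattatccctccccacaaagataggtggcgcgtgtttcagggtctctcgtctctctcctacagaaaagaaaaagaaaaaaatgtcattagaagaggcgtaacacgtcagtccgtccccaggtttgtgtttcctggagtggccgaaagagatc
ZBTB7B: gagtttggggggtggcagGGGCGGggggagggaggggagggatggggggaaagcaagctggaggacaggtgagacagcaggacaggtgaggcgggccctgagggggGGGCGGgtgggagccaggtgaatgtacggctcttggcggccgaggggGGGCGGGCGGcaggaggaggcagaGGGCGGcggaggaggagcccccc
NACC2: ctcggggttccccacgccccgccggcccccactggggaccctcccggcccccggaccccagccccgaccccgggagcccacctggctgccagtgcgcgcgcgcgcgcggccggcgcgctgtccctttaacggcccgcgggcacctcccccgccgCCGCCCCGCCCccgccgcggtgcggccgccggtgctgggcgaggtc
TRPV2: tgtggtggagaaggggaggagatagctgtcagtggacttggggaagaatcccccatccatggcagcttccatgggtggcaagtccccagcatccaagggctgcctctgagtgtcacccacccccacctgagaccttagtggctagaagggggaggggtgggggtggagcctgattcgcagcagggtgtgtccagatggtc
MVB12B: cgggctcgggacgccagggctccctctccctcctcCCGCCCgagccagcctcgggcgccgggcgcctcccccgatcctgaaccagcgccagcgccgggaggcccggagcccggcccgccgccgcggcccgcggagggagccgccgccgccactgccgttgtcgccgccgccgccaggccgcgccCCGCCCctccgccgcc
SH3BP2 encodes an adaptor protein of immune cell signalling, and its window held 8 GC boxes and 1 E-box at 83.5% GC. ZEB2, a zinc finger repressor, had none of the 4 motifs and 48.5% GC. ZBTB7B, the zinc finger factor that directs helper T cell development, had 5 GC boxes. NACC2, a BTB-domain repressor, had 2 GC boxes, as did MVB12B, a subunit of the ESCRT-I sorting complex. TRPV2, a cation channel, had no match and 1 CpG in 200 bases. The windows at these long domains were thus of unlike composition, and a match is a run of letters and not a measured binding site.

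The 4 lists held 96832 peaks. The narrowest peak measured 357 (NC) and 354 bases (sh-ANP32B) in Kasumi-1, and 289 and 275 bases in MV4-11, and the smallest gap between neighbouring peaks was 1 base longer in each, so that the caller worked with a different minimum width and joining gap in each list. Peak heights and read totals were not in the lists, so that library depth is unknown. The line names are those of the labels, and the peaks at marker genes did not all go with them. Within 2500 bases of the starts of RUNX1T1, POU4F1, KIT and MPO, markers of Kasumi-1, no list had a peak, and the fifth, CD34, had peaks of 563 (NC) and 490 bases (sh-ANP32B) in the Kasumi-1 lists only. Of the 7 markers of MV4-11, LYZ had a peak in the MV4-11 lists only, and MEIS1 was wider in MV4-11 NC, at 4992 bases against 3920 in Kasumi-1 NC. HOXA9 (4335 against 769 bases), HOXA10 (6635 against 1503) and FLT3 (1166 against 299) were wider in Kasumi-1 NC, PBX3 had a peak in the Kasumi-1 lists only, and CSF1R had none in any list. The blood cell marker PTPRC had a peak in the MV4-11 lists only, and SPI1 and RUNX1 had one in all 4. The markers of liver, epithelium, fibroblasts and muscle (ALB, KRT5, CDH1, COL1A1, MYOD1) had no peak in any list. H3K27ac at promoters does not measure ANP32B, so the knockdown itself could not be checked in these data.

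The widths next to the minimum were continuous. In Kasumi-1 NC the peaks just inside it were those of ZYX, at 4012 bases, and ARRDC1, at 4014, and those just outside were HS1BP3, at 3993, and UNC13D, at 3994. In MV4-11 NC the peaks just inside were CLCF1, at 4000 bases, and VAT1, at 4010, and those just outside were LMO2, at 3989, and NADK, at 3962.

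Most of the domains were broad in Kasumi-1 alone. In Kasumi-1 NC 427 peaks met the rule, and in MV4-11 NC 119. By the widest peak that overlapped each domain, 346 of the 474 reached 4000 bases in Kasumi-1 NC only, 45 in MV4-11 NC only and 83 in both. Over all 474 domains the median width of the widest peak was 4938.5 bases with NC and 4870 with sh-ANP32B for Kasumi-1, and 2630 and 2041 bases for MV4-11. Some peak was present at 473, 474, 465 and 449 of the domains in the same order, so that most of these genes carried the mark in both lines at unlike widths.

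Among the chosen domains the order of widths was largely kept within a line and much less between lines. Over domains with a peak in both lists, Spearman's rho of NC with sh-ANP32B widths was 0.82 for Kasumi-1 (473 domains) and 0.79 for MV4-11 (446 domains), against 0.13 between the 2 NC lists (464 domains). These are descriptions over domains that share libraries, and the choice by NC width narrows the range on which they rest. A domain entered if either NC list was broad, which can by itself lower rho between the 2 NC lists. The order between lines is therefore not read beyond these domains. The number of domains crossed by 2 or more peaks followed the list that chose them. It was 0 with NC in Kasumi-1 and 238 with NC in MV4-11 for the 346 domains broad in Kasumi-1 NC only, and 25 and 0 for the 45 broad in MV4-11 NC only. Each 0 is fixed by the rule, because a domain broad in 1 NC list only is a single peak of that list. It is no result about the lines. At the 83 domains broad in both, 5 were crossed by 2 or more peaks with NC and 13 with sh-ANP32B in Kasumi-1, and 24 and 53 in MV4-11.

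The longest domain of all, at chr11:67265347-67292330, held the starts of ANKRD13D and of GRK2, the kinase that turns off activated G protein-coupled receptors. Its widest peak measured 26984 bases with NC and 26497 with sh-ANP32B in Kasumi-1, and 9536 and 9366 bases in MV4-11. Width was far lower in both MV4-11 lists and nearly the same before and after knockdown in each line.

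Of the other 9 among the 10 domains widest in Kasumi-1 NC, some hardly moved in either line. SH3BP2 (chr4:2785850-2802216) measured 16367, 16422, 5180 and 4851 bases in the order Kasumi-1 NC, Kasumi-1 sh-ANP32B, MV4-11 NC and MV4-11 sh-ANP32B, the order used for every set of 4 widths from here on. PTPN6 (chr12:6950413-6964160), the phosphatase SHP-1 of blood cells, measured 13748, 13738, 4535 and 4358 bases. PRAM1, an adaptor of myeloid cells, measured 13483, 14017, 5144 and 4823. All 3 were far wider in the Kasumi-1 lists and moved by less than 1.2-fold in either line.

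GNAI2, an inhibitory G protein subunit, differed from them in MV4-11, at 12787, 12746, 7082 and 3103 bases. MMP25, a membrane-bound matrix metalloproteinase of leukocytes, measured 15974, 15797, 5119 and 2896 bases. Both stayed where they were in Kasumi-1 and were narrower after knockdown in MV4-11.

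The domain of ZEB2 (chr2:144507575-144521746) was the widest of MV4-11 and the reverse of most others. It measured 3459 and 3490 bases in the Kasumi-1 lists, where 4 and 5 separate peaks crossed it, and 14172 and 14580 bases as 1 unbroken peak in the MV4-11 lists. Knockdown left its width where it was in both lines.

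The 10 domains with the largest narrower NC width of the 2 lines all stayed within 1.2-fold in Kasumi-1, and 5 of them were at least 1.2-fold narrower in MV4-11, namely ZBTB7B, NACC2, TCIRG1, TPSAB1 and GFI1. Over all promoter regions with a peak in both lists of a line, 19.8% were narrower and 11.6% wider in Kasumi-1, and 52.3% narrower and 9.46% wider in MV4-11. ZBTB7B (chr1:154998695-155012632) measured 13938, 13819, 12203 and 2845 bases. Its MV4-11 NC peak of 12203 bases was cut into 5 peaks after knockdown, which still covered 9703 bases of the domain. The fall of the widest peak, -2.10 on the log2 scale, therefore came with a much smaller fall of the bases under peaks.

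TCIRG1, a subunit of the vacuolar proton pump, went from 8782 to 3454 bases in MV4-11 and from 9644 to 8880 in Kasumi-1. GFI1, a zinc finger repressor of granulocyte development, went from 7952 to 2707 bases in MV4-11 and from 8637 to 8648 in Kasumi-1, while peaks covered 8552 bases of its domain with NC and 7316 with sh-ANP32B in MV4-11. NACC2 went from 9543 to 6104 bases in MV4-11 and from 10905 to 11033 in Kasumi-1. At these 3 genes as at ZBTB7B, more peaks crossed the domain in MV4-11 after knockdown than before.

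The others of the 10 moved less in MV4-11. CCDC57 measured 8219, 8193, 7914 and 7919 bases, and ZC3H12A, the RNase regnase-1 that degrades inflammatory messenger RNAs, 7934, 7535, 7907 and 7663. CTSD, the lysosomal protease cathepsin D, measured 8623, 8401, 7509 and 6741, and FMNL1, a formin of leukocytes, 11691, 11305, 8260 and 7578. TPSAB1, a mast cell tryptase, measured 9420, 8759, 8601 and 5883 bases, which is uncertain because near-identical tryptase genes lie beside it and reads may have been shared among them.

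**Figure D1:**
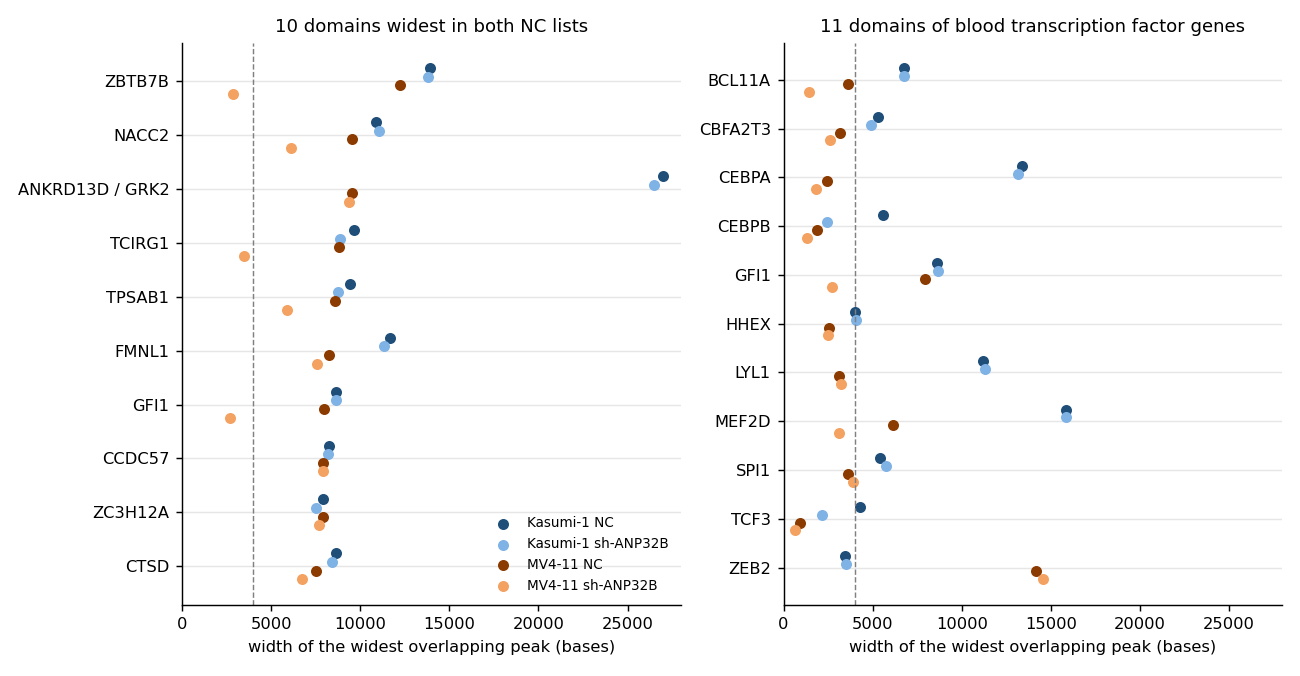
Width in bases of the widest peak that overlapped each domain in the 4 lists, for the 10 domains widest in both NC lists (left) and the 11 domains that held a blood transcription factor gene (right). Each point is 1 list, there are no error bars because each group was 1 list, and the dashed line marks 4000 bases. ZBTB7B, TCIRG1 and GFI1 fell below the line in MV4-11 sh-ANP32B, and ZEB2 was wide in the MV4-11 lists alone.

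The genes in broad domains were counted in lists of genes drawn up for this tissue with earlier results known, and no enrichment was tested. Of 45 blood transcription factors, 11 (24.4%) had their start in a broad domain, beside 2.84% of all protein-coding genes, and these made up 11 of the 474 domains. Of 27 HOXA, HOXB and cofactor genes 6 did (22.2%), of 43 immediate-early and feedback genes 9 (20.9%), and of 38 blood cell surface proteins 5 (13.2%). All domains of these last lists were broad in Kasumi-1 NC and 0 were broad in MV4-11 NC. The 6 genes of the HOX list were all HOXA genes, in 5 neighbouring domains of a single cluster. The shares were 9.26% (5 of 54) for cell cycle and DNA replication genes and 5.95% (5 of 84) for chromatin regulators. They were 2.35% (2 of 85) for cytosolic ribosomal protein genes, 0 of 78 for mitochondrial ribosomal protein genes and 1.57% (8 of 508) for numbered ZNF zinc finger genes.

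Lists differ in how many of their genes had a control promoter peak at all. Among genes that had one, of any width, the share in broad domains was 6.66% over all genes. It was 36.7% for the blood transcription factors (11 of 30), 60.0% for the HOXA, HOXB and cofactor genes (6 of 10), 26.5% for immediate-early and feedback genes (9 of 34), 18.5% for blood cell surface proteins (5 of 27) and 10.2% for cell cycle and DNA replication genes (5 of 49). The 6 genes of the HOX list are neighbours in a single cluster, broad in Kasumi-1 NC only. Chromatin regulators, at 6.41% (5 of 78), were close to all genes. Numbered ZNF genes stood at 3.70% (8 of 216), cytosolic ribosomal protein genes at 2.47% (2 of 81) and mitochondrial ones at 0 of 65.

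The blood factors differed among themselves. CEBPA (chr19:33289803-33303181), the master factor of granulocytes, measured 13379, 13141, 2440 and 1820 bases. LYL1, a basic helix-loop-helix factor of stem cells, measured 11193, 11280, 3098 and 3202. MEF2D, a MADS-box factor, measured 15830, 15854, 6147 and 3091. All 3 were widest in Kasumi-1, where knockdown moved them by less than 2%.

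SPI1, the ETS factor PU.1 of myeloid cells, moved by less than 1.2-fold in both lines, at 5430, 5754, 3629 and 3878 bases. BCL11A, a zinc finger repressor, measured 6762, 6777, 3595 and 1423. CEBPB, a factor of inflammatory gene expression, measured 5571, 2467, 1871 and 1298, and TCF3, which encodes the E proteins E12 and E47, measured 4283, 2167, 918 and 644. CEBPB and TCF3 were the 2 of the 11 that were narrower by at least 1.2-fold in Kasumi-1, each as 2 peaks in place of 1, and both were narrower in MV4-11 too.

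HHEX measured 4022, 4087, 2569 and 2506 bases, and CBFA2T3, a corepressor, 5329, 4906, 3153 and 2587. In all, 7 of the 11 were narrower in MV4-11 by at least 1.2-fold and 0 wider, and 2 were narrower and 0 wider in Kasumi-1. With 52.3% of all promoter regions narrower in MV4-11 and 19.8% in Kasumi-1, and so few genes, nothing particular to the blood factors is read from these counts.

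The 5 neighbouring domains of the HOXA cluster, homeobox genes that pattern the body axis and mark immature blood cells, that met the rule were broad in Kasumi-1 only. One domain (chr7:27150131-27162557) held the starts of HOXA3 and HOXA7 and measured 12427, 12431, 934 and 418 bases. HOXA10 measured 6635, 6668, 1503 and 1180, and HOXA9 4335, 7224, 769 and 659. HOXA11, at 7349, 7417, 1358 and 2385, was the 1 of the 5 that was wider after knockdown in MV4-11. All 5 were wider in Kasumi-1 NC than in MV4-11 NC, the order opposite to that of a marker of MV4-11.

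Among immediate-early and feedback genes, JUNB, a subunit of AP-1, measured 8882, 10194, 3237 and 2133 bases, and IER2 10171, 10130, 3673 and 2080. ZFP36, which destabilises AU-rich messenger RNAs, measured 7744, 7903, 3187 and 3193. MYC, the growth factor-induced transcription factor whose H3K27ac the study displayed, had peaks of 4311 (NC) and 4466 bases (sh-ANP32B) in Kasumi-1. For MV4-11 it had a peak of 893 bases with NC, and none after knockdown. ANP32A, the paralog of ANP32B, measured 4667, 4687, 4957 and 3972, and ANP32B itself had no broad domain.

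The starts in broad domains differed in composition from other starts with a control peak. Over the 1001 bases centred on the start, median GC content was 68.0% (quartiles 61.5% and 72.8%) at the 566 starts in broad domains and 63.7% (58.7% and 68.9%) at 7934 starts in narrower regions, beside 61.3% at all 19970 starts. The ratio of observed to expected CpG was 0.783, 0.802 and 0.725. The genes themselves were short, with a median length of 14713 bases in broad domains against 27335.5 in narrower regions and 22930.5 overall. Over whole domains, median GC was 59.7%, between that of all promoter regions (61.7%) and that of the 796 broad control regions that held no coding start (53.7%).

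Motif shares in the 200 bases before the start were alike for some motifs and apart for others. A GC box, the site of SP family factors, was found at 74.7% of starts in broad domains (95% Wilson interval 71.0 to 78.1), at 69.6% of starts in narrower regions (68.6 to 70.6) and at 56.3% of all starts. An ETS motif was found at 9.01% (6.92 to 11.7), 18.6% (17.8 to 19.5) and 10.8%. The CCAAT box was found at 29.7%, 30.7% and 30.4%, and the E-box at 6.54%, 8.90% and 6.93%. The ETS motif was thus found at about as many starts as overall and at fewer than in narrower regions, and these intervals cover counting error over genes only.

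Broad peaks reached further into the gene than before it. Among peaks with a single start in Kasumi-1 NC the median extent was 1868.5 bases upstream and 3265 bases downstream, and 248 of 356 were longer downstream. In MV4-11 NC the medians were 1643.5 and 3322 bases, and 69 of 104 were longer downstream. The downstream edge of a domain fell in the first intron for 281 of the 566 genes (49.6%), in a later intron for 144, in a later exon for 56, in the first exon for 10 and past the gene end for 75. Of the domains, 394 held 1 gene, 71 held 2 and 9 held 3 or 4, and in the latter the width cannot be assigned to 1 gene.

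**Figure D2:**
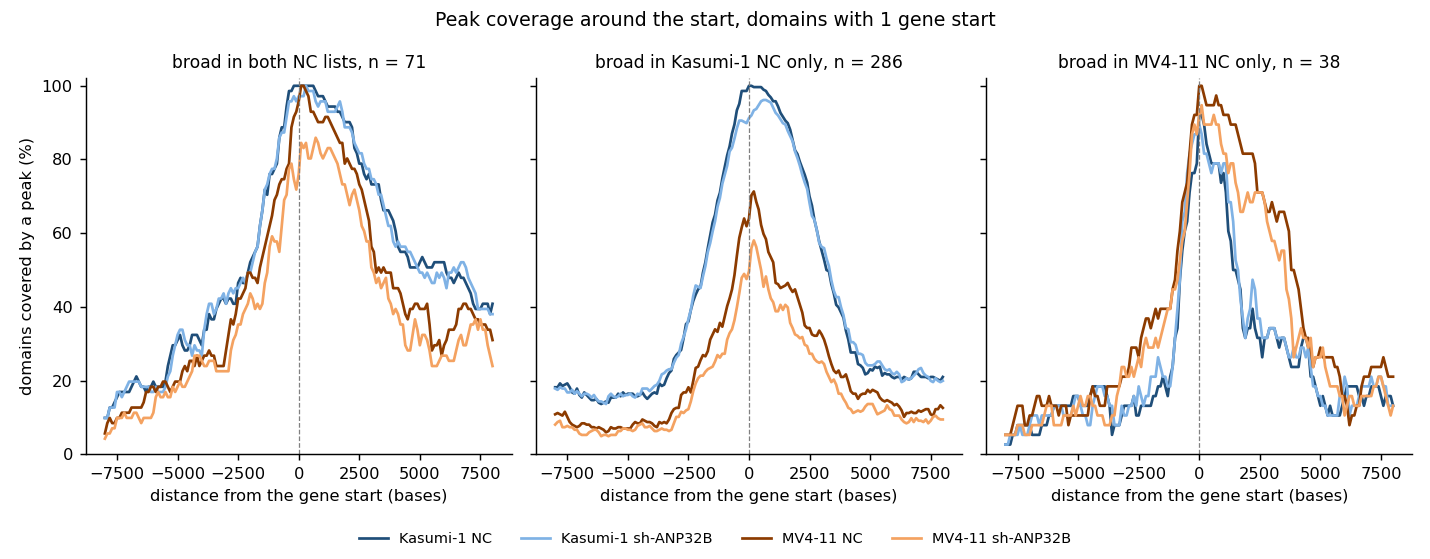
Share of domains with a single gene start that were covered by a peak, in percent, against the distance from the start in bases, positive in the direction of transcription, for the 4 lists. Panels split the domains by the NC list in which they were broad. At the start, domains broad in Kasumi-1 NC only were covered in 100% of cases with NC and 91.3% with sh-ANP32B in Kasumi-1, and in 64.0% and 49.7% in MV4-11, and the Kasumi-1 sh-ANP32B line dips at the start and is highest 600 bases downstream.

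In Kasumi-1 the width of most broad domains stayed where it was after knockdown. Of 473 domains with a peak in both lists, 367 changed by less than 1.2-fold, 76 (16.1%) were at least 1.2-fold narrower and 30 (6.34%) at least 1.2-fold wider, and the median log2 ratio of sh-ANP32B to NC was -0.0024. Among all 6922 promoter regions with a peak in both lists, 19.8% were narrower and 11.6% wider, with a median of 0.0039. The share of broad domains that were narrower or wider was thus below that over all promoter regions, and nothing about the domains is read from the comparison because the NC list chose them.

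In MV4-11 the domains were narrower after knockdown, as promoter regions were in general. Of 446 domains with a peak in both lists, 213 (47.8%) were at least 1.2-fold narrower and 32 (7.17%) wider, and the median log2 ratio was -0.23. Over all 4249 promoter regions with a peak in both MV4-11 lists the shares were 52.3% narrower and 9.46% wider, with a median of -0.29. The number of domains with a peak of 4000 bases or more fell from 128 to 80 in MV4-11 and from 429 to 359 in Kasumi-1. These falls are in part built in, because the NC lists chose the domains. With each list counted by the same rule, the numbers were 119 and 76 in MV4-11 and 427 and 408 in Kasumi-1. Of the 445 domains with a peak in all 4 lists, 36 (8.09%) were narrower in both lines and 2 (0.449%) wider in both, beside 8.24% and 1.14% of the 4116 promoter regions with a peak in all 4 lists. At 16 of the 445 (3.60%) the lines moved in opposite directions, beside 6.8%.

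**Figure D3:**
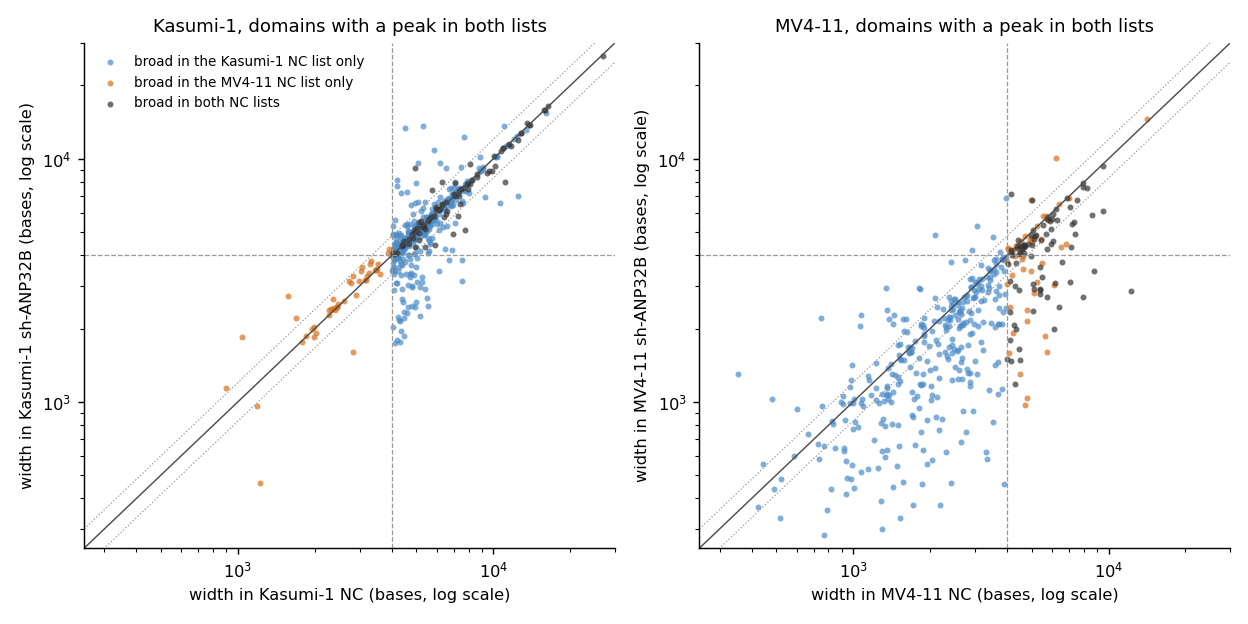
Width of the widest peak at each domain in NC (horizontal axis) and sh-ANP32B (vertical axis), in bases on log scales, for Kasumi-1 (473 domains) and MV4-11 (446 domains). Each point is 1 domain, coloured by the NC list in which it was broad, the solid line marks equal width, dotted lines a 1.2-fold change and dashed lines 4000 bases. Most Kasumi-1 points lie along the line of equal width, and the MV4-11 points lie mostly below it.

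The 8 largest falls in Kasumi-1 all came with splits of the peak. SNRK, a kinase related to AMPK, measured 1220, 464, 5734 and 1605 bases. GNAS, the stimulatory G protein alpha subunit of an imprinted locus, had peaks of 4315, 1769, 3300 and 620 bases and was among the 8 largest falls of both lines, at -1.29 and -2.41 on the log2 scale. FASN, fatty acid synthase, went from 5173 to 2247 bases in Kasumi-1 as 2 peaks that covered 4071 bases of the domain. KREMEN2 and PAQR4 shared a domain that went from 7517 to 3126 bases as 3 peaks covering 6340.

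KLF16, CARHSP1, CAMK2G and CEBPB made up the rest of the 8, with log2 ratios from -1.26 to -1.18, and each went from 1 peak to 2 in Kasumi-1. Of the 76 narrower domains in Kasumi-1, 59 had more peaks after knockdown than before. By bases under any peak, 38 of the 76 changed by less than 1.2-fold. Such counts within called domains have no share over all promoter regions beside them, so they are not read as a trait of broad domains. Over all domains with a peak in both lists, bases under peaks were at least 1.2-fold lower at 8.67% in Kasumi-1. The share of all promoter regions was 21.0%, and nothing is read from the comparison because the NC list chose the domains.

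Most rises in Kasumi-1 joined peaks that were separate in NC. Of the 30 wider domains, 25 had a widest sh-ANP32B peak that overlapped 2 or more NC peaks, again without a share over all promoter regions. The peak at PIM3, a serine-threonine kinase, grew from 4517 to 13390 bases, and the domain itself went from 4517 to 4417 covered bases. The peak over PFN1, the actin-binding protein profilin, and ENO3, the muscle enolase, grew from 5296 to 13562 bases with 5296 covered bases in the domain in both lists. SCO2 (4177 to 8156), the domain of TACC3 and TMEM129 (5057 to 9585) and DNAJC5 (5871 to 10889) were the other 3 of the 5 largest, and the 5 peaks spanned 2 to 4 NC peaks. By bases under peaks, 27 of the 30 changed by less than 1.2-fold, on a measure that cannot rise where the NC peak already filled the domain.

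In MV4-11 the falls reached further and more of them were falls of covered bases. UBTF, the factor that activates ribosomal RNA genes, went from 3888 to 460 bases, with 844 bases still under peaks, while Kasumi-1 had 4983 and 4327. LASP1, an actin-binding protein, went from 1518 to 331, while Kasumi-1 had 4369 and 4366. ADISSP (2184 to 377), ZFP92 (3336 to 583) and the domain of PRPF6 and SAMD10 (2406 to 462) also lost most of their width.

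TRPV2 went from 4713 to 970 bases as 4 peaks covering 2533, and MVB12B from 4801 to 1035 as 4 peaks covering 2523. Of the 213 narrower domains in MV4-11, 97 had more peaks after knockdown and 171 also lost at least 1.2-fold in bases under peaks. Both were counted within the narrower domains only. Over all domains with a peak in both MV4-11 lists, 45.1% lost at least 1.2-fold in bases under peaks, beside 52.0% of all promoter regions.

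The 5 largest rises of MV4-11 were RNPEPL1 (353 to 1301 bases), ADAMTSL4 (747 to 2211), PPIF, the mitochondrial cyclophilin D (2086 to 4863), CORO1A, an actin-binding coronin of leukocytes (1342 to 2951), and the domain of VPS9D1 and ZNF276 (480 to 1031). All 5 domains had been chosen in Kasumi-1 NC. PPIF went from 4 peaks to 1 in MV4-11, with 4170 and 4587 bases under peaks. Of the 32 wider domains of this line, 21 had a widest peak that spanned 2 or more NC peaks, counted for the domains only.

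A choice made in 1 line leaves the change in the other line free of it. The 427 domains chosen in Kasumi-1 NC had a median log2 ratio of -0.23 in MV4-11 (399 with a peak in both lists), with 191 narrower (47.9%, 95% Wilson interval 43.0 to 52.8) and 30 wider, against 52.3% and 9.46% over all promoter regions. The 119 domains chosen in MV4-11 NC had a median of 0.0047 in Kasumi-1 (118 with a peak in both), with 9 narrower (7.63%, 4.06 to 13.9) and 7 wider, against 19.8% and 11.6%. Seen from the other line, the domains still narrowed in MV4-11 and kept their width in Kasumi-1.

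The size of the change depended on which list chose the domains. Domains chosen in Kasumi-1 sh-ANP32B had 17 narrower and 69 wider of 408 in Kasumi-1, with a median of 0.021, in place of 73 and 26 of 427 for those chosen in Kasumi-1 NC. Domains chosen in MV4-11 sh-ANP32B had 5 narrower and 16 wider of 76 in MV4-11, with a median of -0.0069, in place of 55 and 4 of 119. With the choice by NC width, the MV4-11 median for the 26 promoter regions of 6000 bases or more was -0.41, with the choice by sh-ANP32B width it was 0.031 over 14 regions, and with the geometric mean of both widths it was -0.0087 over 12 regions. By the geometric mean, which treats the lists alike, the medians for 4000 to 6000 bases were -0.091 in MV4-11 (75 regions) and 0.0080 in Kasumi-1 (271 regions), while regions under 1000 bases had -0.45 and -0.036.

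**Figure D4:**
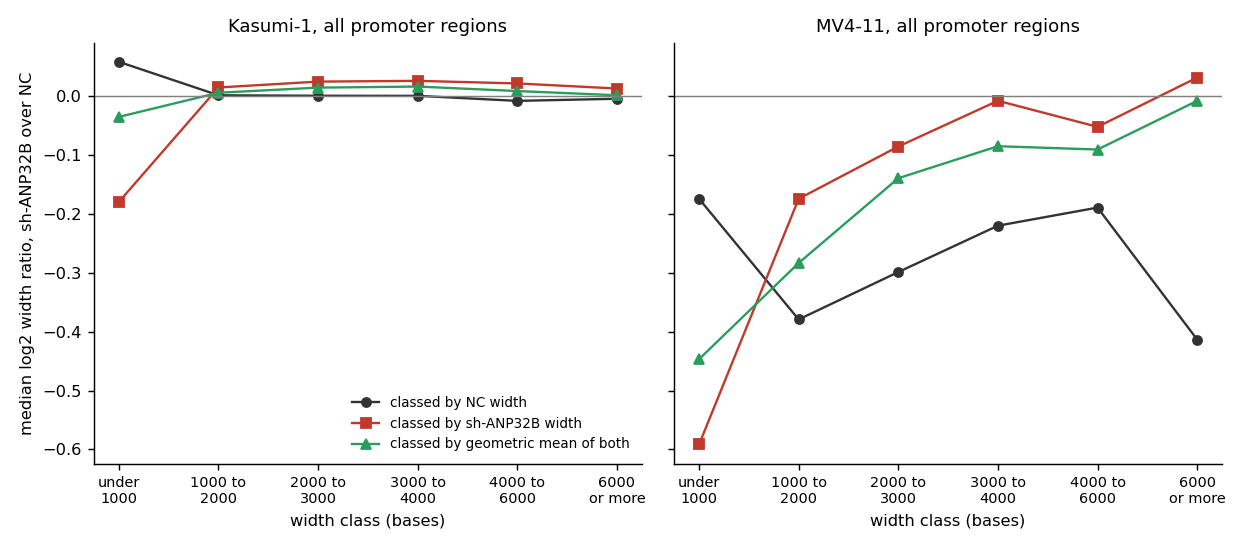
Median log2 ratio of sh-ANP32B to NC width over all promoter regions with a peak in both lists of a line, against width class in bases, with the class set by NC width, sh-ANP32B width or the geometric mean of both. In MV4-11 the median for 6000 bases or more was -0.41, 0.031 and -0.0087 by the 3 ways, and by the geometric mean the narrowest regions had the lowest median in both lines.

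Counting each list by the same rule also treats NC and sh-ANP32B alike. Peaks of at least 4000 bases with a coding start numbered 427 with NC and 408 with sh-ANP32B in Kasumi-1, a ratio of 0.956 (95% interval 0.832 to 1.10, treating each number as a Poisson count). For MV4-11 they numbered 119 and 76, a ratio of 0.639 (0.472 to 0.859). For peaks of any width with a coding start the ratios were 0.845 (0.817 to 0.874) and 0.698 (0.666 to 0.732). For all peaks of at least 4000 bases, with or without a coding start, they were 1.065 (0.977 to 1.16) and 0.682 (0.597 to 0.778). In Kasumi-1 the interval for broad promoter peaks included the ratio for promoter peaks of any width, so these are not told apart. In MV4-11 each of these ratios was below 1, and that of broad promoter peaks was near that of all broad peaks. The intervals cover counting error only.

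A larger share of the broad peaks was cut in MV4-11 than in Kasumi-1, at unlike joining gaps. The smallest gap was 276 bases in MV4-11 sh-ANP32B and 355 in Kasumi-1 sh-ANP32B. Cuts shorter than 355 bases could thus be seen in MV4-11 only, and their part in the difference was not tested. Of the 427 broad promoter peaks of Kasumi-1 NC, 67 (15.7%, 12.5 to 19.4) overlapped 2 or more peaks in sh-ANP32B, and of the 119 of MV4-11 NC 55 did (46.2%, 37.5 to 55.2). None of either set lacked a peak after knockdown, and the peaks that remained covered a median of 98.4% and 90.0% of the NC peak. Broad peaks without a coding start were cut in 10.7% of 588 cases in Kasumi-1 and 44.8% of 440 in MV4-11. In the opposite direction, sh-ANP32B peaks with a coding start were cut in the NC list in 16.2% of 408 cases in Kasumi-1 and 21.1% of 76 in MV4-11, and those without one in 21.8% of 673 and 18.4% of 305. In Kasumi-1 the shares of the 2 directions were thus close for peaks with a coding start, while without one the cuts in the NC list were more frequent.

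The cuts of promoter peaks in Kasumi-1 lay at unlike places in the 2 directions. The 67 split peaks had 72 gaps with a median length of 485.5 bases, and 22 of the gaps held a transcription start. In all 22 the GC content was above that of the whole NC peak, with medians of 76.9% and 62.2%. Starts in broad domains are richer in GC than whole domains in any case, at medians of 68.0% over 1001 bases and 59.7%. Starts that stayed covered were not compared, so the 22 gaps are not read as a trait of the cuts. The 50 gaps without a start differed from their own peaks by a median of -2.23 percentage points of GC, and 20 of them were above their peak. In the opposite direction, the 66 peaks of Kasumi-1 sh-ANP32B that were split in NC had 75 gaps with a median GC of 49.0% against 57.4%, and 0 of them held a start.

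In MV4-11 the gaps lay elsewhere. Of 80 gaps, with a median length of 429.5 bases, 6 held a start and 74 did not, and the 74 differed from their own peaks by a median of -3.90 percentage points of GC, with 21 of them above their peak. The 6 gaps with a start again all had a higher GC than their peak, with the same limit as in Kasumi-1. No gap shorter than 355 bases in Kasumi-1 or 276 in MV4-11 could be seen, because the caller joined nearer peaks.

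**Figure D5:**
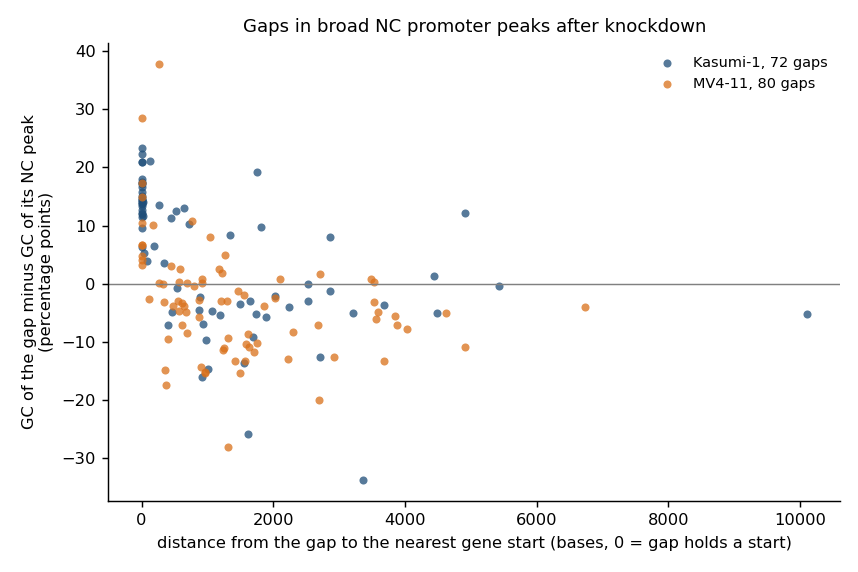
GC content of each gap minus that of the NC peak it cut, in percentage points, against the distance in bases from the gap to the nearest gene start in that peak, with 0 for gaps that hold a start. Each point is 1 of the 72 gaps of Kasumi-1 or the 80 gaps of MV4-11. All gaps at 0 lie above the horizontal line, and most gaps away from a start, in both lines, lie below it. Starts in broad domains are richer in GC than whole domains in any case, and starts that stayed covered are not shown.

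In Kasumi-1 a larger share of starts lost their peak call where the GC content around them was higher. Of the 566 starts in broad domains, 562 lay under a peak with NC and 521 with sh-ANP32B in Kasumi-1, while MV4-11 had 399 and 317. In the former line 41 starts were under a peak in NC and not in sh-ANP32B, and 0 the other way. The choice by NC peaks largely fixed this direction, since the 562 starts already under an NC peak could not gain one. With the starts put in 3 classes by GC over 1001 bases, the share that lost its peak in Kasumi-1 was 0.541% (1 of 185) in the lowest class, 6.28% (12 of 191) in the middle and 15.1% (28 of 186) in the highest. At starts of narrower promoter regions, by the same class limits, the shares were 7.76%, 20.9% and 42.1%.

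In MV4-11, 95 starts lost their peak and 13 gained one, and the shares lost were 12.9%, 28.4% and 31.4% from the lowest to the highest class. The intervals of the middle class (21.6 to 36.3) and the highest (23.7 to 40.2) overlapped widely. At starts of narrower regions they were 35.2%, 38.2% and 46.5%. In every class and both lines the share was lower at starts in broad domains, a description, since NC width chose them. The part of GC content in these losses was not tested.

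Few domains lacked a peak altogether, which the choice by NC width in part fixes. ANKRD28, a subunit of protein phosphatase 6, was the 1 domain without a peak in Kasumi-1 NC, with 0, 459, 5429 and 4691 bases, beside 1.59% of all promoter regions without one. No domain lacked a peak in Kasumi-1 sh-ANP32B, where 6.24% of all promoter regions did, and where 5.06% of the 7291 with an NC peak had lost it. MV4-11 NC had no peak at 9 of the 474 domains (1.90%), among them CIITA, the master regulator of MHC class II genes (4236, 4395, 0 and 0 bases), TRAF4 and SOX12, beside 25.2% of all promoter regions. MV4-11 sh-ANP32B had none at 25 (5.27%), beside 40.1%.

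Of the 465 domains with a peak in MV4-11 NC, 19 had none after knockdown (4.09%), beside 23.4% of the 5545 promoter regions with such a peak. Among the 19 were MYC, CCND2, which encodes cyclin D2 (4968, 4860, 322 and 0), PRTN3, the neutrophil protease proteinase 3 (6159, 6981, 396 and 0), SMAD7, an inhibitor of TGF-beta signalling (4886, 4761, 599 and 0), and GADD45B (5728, 6193, 736 and 0). In MV4-11 NC 13 of the 19 had a widest peak under 1000 bases, beside 1122 of the 1296 promoter regions that lost theirs. The widest of the 19, at NOL4L, measured 2641. A peak of 4000 bases or more was present in both Kasumi-1 lists at 12 of the 19, and CAMK2G (4205, 1791, 930 and 0) and SASH3 (4419, 2562, 355 and 0) were among those that fell below it after knockdown there.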

How the data were processed

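Peak lists of 4 H3K27ac CUT&Tag libraries were analysed, 1 for each group. The deposited files list for each peak only its chromosome or contig, its first and last base, counted from 1 on hg38, and its length, with no score, fold enrichment, q-value or coverage. The authors aligned reads with Bowtie2, removed duplicates with Picard, merged replicates with samtools and called peaks with MACS2, per their methods, whereas the submitters' processing notes name Bowtie2 2.4.4 and MACS3 3.0. Whether IgG served as the control is not given in the sources used here, and depth is unknown.

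Gene starts were those of the Ensembl canonical transcripts of protein-coding genes in GENCODE release 44. At each domain the width of the widest peak overlapping it by at least 1 base was taken in each list, and narrower or wider means at least 1.2-fold. The background is all promoter regions of the NC lists, built in the same way with no width minimum. Gene and promoter sequence features were read from hg38. Intervals are Wilson intervals for shares and exact intervals for ratios of counts, at 95%, and cover counting error only. No test was run, because each group was 1 list. Named genes were the 10 widest domains of each NC list and of both, the 8 largest falls and 5 largest rises of each line, members of 10 gene lists, the domains next to the width minimum and domains without a peak in a list. Domains whose direction differed between the lines were added later. The members, the gene lists and the rule were chosen with earlier results of these data known. The scripts (Python 3.11.15, pandas 2.3.3, pysam 0.24.0) were tested on simulated lists.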

Additional observations from a re-analysis of the deposited data

Results flagged for a closer look

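At 16 of the 445 domains with a peak in all 4 lists (3.60%) the widest peak moved by at least 1.2-fold in opposite directions in the 2 lines, beside 6.8% of 4116 promoter regions, and the difference was not tested. It was narrower in Kasumi-1 and wider in MV4-11 at 7 domains and the reverse at 9. With widths given for NC and then sh-ANP32B, first for Kasumi-1 and then for MV4-11, RNPEPL1 measured 4785, 2978, 353 and 1301 bases, and DUSP7, a MAP kinase phosphatase, 6438, 4250, 1076 and 2284. The domain of ENO3 and PFN1 measured 5296, 13562, 3692 and 1078 bases, and SMIM3 1571, 2733, 6487 and 4341. DUSP7 and SMIM3 were picked for mention after their values were seen.

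Peaks of at least 4000 bases also lay outside chromosomes 1 to 22 and X, where the rule did not look. Kasumi-1 had 36 of them with NC and 29 with sh-ANP32B, and MV4-11 had 7 and 5.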

How the results depend on the processing

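Of 70 values recomputed for 9 results, 46 stayed within the counting interval of the reported value, or within 1.5 times for the number of domains. The ratio of broad promoter peaks per list stayed below 1 in MV4-11 (0.5 to 0.695) and ran from 0.956 to 1.06 in Kasumi-1, above 1 with peaks 1000 bases apart joined or a 6000-base minimum, and the MV4-11 medians were negative under each setting run. Joining peaks at most 1000 bases apart gave 738 domains, 9.76% narrower in Kasumi-1 with a median log2 ratio of 0.00648, and 0.015 in Kasumi-1 for domains chosen in MV4-11 NC. A minimum of 3000 bases gave 962 domains. A minimum of 6000 bases gave 142, with 12% narrower in Kasumi-1 and -0.025 in Kasumi-1 for domains chosen in MV4-11 NC. Bases under any peak gave 8.67% and -0.0159 in Kasumi-1. The peak over the start, where both lists had one, gave 12.9% in Kasumi-1, 39.5% and -0.144 in MV4-11, and -0.142 in MV4-11 for domains chosen in Kasumi-1 NC. A 1.5-fold limit left 8.67% of the Kasumi-1 and 33.9% of the MV4-11 domains narrower. Choice in the sh-ANP32B lists gave 3.88% and 0.0208 for Kasumi-1, with 43% for MV4-11, and the 427 widest promoter peaks of each list a median of 0.00344 in Kasumi-1. Choice by the geometric mean of both widths, added after the data were seen, gave 8.8% and 0.00461 for Kasumi-1, with 23% and -0.0828 for MV4-11. The Kasumi-1 medians thus lay on either side of 0. Taking equal numbers of peaks gives no value for the number per list, which it fixes.

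No paired analysis was possible because no result came from a test and the labels give no replicate numbers. The 2 lines were described apart, and a test over them as 2 pairs was not run. Depth is unknown, the lists carry no peak heights, and a separate minimum width and joining gap per list sets which gaps and narrow peaks can be seen. The cause of the changes between settings was not tested.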
